A study of Homo sapiens with 8 samples.

Results

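The genes described here are those of WNT signalling at the cell surface: the WNT ligands, the Frizzled (FZD) receptors, the LRP co-receptors, the LGR receptors for R-spondins, the ligases RNF43 and ZNRF3, the DKK, SFRP and WIF1 antagonists, the TCF/LEF transcription factors and AXIN2. They were chosen by gene name. The names matched 53 of 48405 rows and gave 50 distinct genes, of which 33 genes on 34 rows lay above 0 in at least 1 library. RNA of gefitinib-resistant cells was compared with RNA of DMSO cells in HCC4006 and HCC827, human lung adenocarcinoma lines that carry activating EGFR mutations. The resistant HCC4006 and resistant HCC827 cultures had been adapted until they grew in 3 µM gefitinib, an inhibitor of the EGFR kinase. The DMSO cultures of both lines, passage controls kept with the solvent, served as their references. Every group held 2 polyadenylated RNA libraries, called A and B here after their columns, so that 8 libraries in 4 groups were measured. The labels do not say whether a resistant culture is 1 clone, nor whether the 2 libraries of a group are separate cultures, so the p-values reflect no more than the scatter of these samples, and that scatter may be technical. Resistance and the presence of the drug cannot be told apart in this design. In bulk RNA, fewer cells that use a gene and less of its RNA per cell cannot be told apart either. The study's title sets resistance beside cellular reprogramming, and WNT genes are part of many such programmes.

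WNT proteins are secreted, lipid-modified ligands. In the canonical branch a WNT bridges a Frizzled receptor and LRP5 or LRP6, the complex that destroys beta-catenin is held back, and beta-catenin enters the nucleus and works with TCF/LEF factors. Other branches signal through Frizzled together with ROR or RYK receptors and act on cell polarity and movement. DKK1 blocks the LRP co-receptors, SFRP proteins and WIF1 bind the ligands, RNF43 and ZNRF3 remove Frizzled from the membrane, and R-spondins acting through LGR4, LGR5 or LGR6 counter that removal. AXIN2 is both a scaffold of the destruction complex and a widely used target gene of the canonical branch. In the mouse lung, WNT7B and WNT5A are known for their parts in epithelial and mesenchymal development.

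Values are FPKM, fragment numbers divided by transcript length and by the size of the library, so that levels of different genes can be set side by side per length. Tests ran on log2(FPKM + 0.5) with limma, with Benjamini-Hochberg adjustment over all rows of a fit, and a gene is said to have risen or fallen where its adjusted p was below 0.05. Fold changes below are differences on that log2 scale, resistant minus DMSO, with their standard error, and they understate the change of low genes. Sequencing depth is unknown, so no counting error can be attached to a value, and a 0 is given as listed at 0 with no fold change. Whether a 0 is a low level or a value not estimated was not tested for any gene. A group listed at 0 in both libraries has no scatter of its own. The adjusted p of a call against such a group therefore takes its scatter within the row from the other groups alone, and may be too low. SUPT4H1, a transcription elongation factor that growing cells generally use, was also listed at 0 in every library, as was KRT7, a keratin common in lung adenocarcinoma. Between 17406 and 19333 rows lay above 0 in a library, and 1 library stood apart in that its top 10 rows carried 15.6% of the summed FPKM (HCC4006 DMSO, library A), against 5.3% to 10.3% in the other 7. Of 9 lung adenocarcinoma epithelial markers, 8 were found and 7 lay above 0 somewhere. Their summed level was 1629 to 1802 FPKM in resistant HCC4006, against 9506 to 15844 FPKM in HCC4006 DMSO, and 11502 to 20216 FPKM in resistant HCC827, against 15686 to 16869 FPKM in HCC827 DMSO. CDH1, the junction protein E-cadherin, was at 3.03 and 3.29 FPKM in resistant HCC4006, against 1518 and 945 FPKM in HCC4006 DMSO. The resistant HCC4006 libraries thus carried low levels of markers that define the labelled cell type, and the part of this in the WNT results was not tested. Of 8 fibroblast markers 5 lay above 0 somewhere, with sums of 96.6 to 119 FPKM in resistant HCC4006 against 71.7 to 122 FPKM in HCC4006 DMSO, and 13.4 to 18.1 FPKM in resistant HCC827 against 44.1 to 50.9 FPKM in HCC827 DMSO. COL3A1, THY1 and FAP were listed at 0 in all 8 libraries, as were the immune markers PTPRC, CD3E, MS4A1 and NKG7 and the endothelial markers CDH5 and CLDN5. Among markers above 0, the macrophage marker CD68 was at 264 to 1122 FPKM over all libraries. CD14 was at 1.87 and 2.32 FPKM in resistant HCC4006 and listed at 0 in HCC4006 DMSO, and the endothelial KDR at 4.08 and 3.71 FPKM in resistant HCC4006, against 0.522 and 1.42 FPKM in HCC4006 DMSO. Neither passed the test. The immune marker LYZ went the other way, listed at 0 in resistant HCC4006, against 3.90 and 2.35 FPKM in HCC4006 DMSO (adjusted p = 0.0576). LYZ was listed at 0 in all HCC827 libraries, so its called difference between the lines (adjusted p = 0.023) restates the HCC4006 change, which was not called. The PDGFRB row, a fibroblast marker joined with AC005895.3, rose to 21.9 and 26.2 FPKM in resistant HCC4006, against 2.57 and 0.764 FPKM in HCC4006 DMSO (adjusted p = 0.0385), and its part in the WNT results was not tested.

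Promoter sequence was looked up for the genes above because several of them are themselves reported targets of TCF/LEF factors. RefSeq promoters on GRCh38.p14 matched 34 of the 50 genes by symbol and gave 43 promoters, and the 250 bases before each start were searched on both strands. The motifs were the TCF/LEF core CTTTGA, its longer form CTTTGAT, which contains the core, the TATA box TATAAA and the GC box GGGCGG. The core was found in 11.2% of 35116 RefSeq promoters and in 1 of the 43 promoters of these genes, that of the antagonist DKK1, which held 2 copies. The longer form was in 2.26% of all promoters and in 0 of the 43. TATAAA was in 10.7% of all promoters and in 4 of the 43, and GGGCGG in 42.6% and in 29. Printed here are DKK1, for its 2 cores, and the ligands WNT5B and WNT9A, which were called higher or lower in 1 line each. DKK1 was picked after the motif counts were seen. Each line runs 5′ to 3′ on the gene's strand, and capitals mark the matches, on either strand, to the 4 motifs.

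DKK1, chr10:52314031-52314280, plus strand: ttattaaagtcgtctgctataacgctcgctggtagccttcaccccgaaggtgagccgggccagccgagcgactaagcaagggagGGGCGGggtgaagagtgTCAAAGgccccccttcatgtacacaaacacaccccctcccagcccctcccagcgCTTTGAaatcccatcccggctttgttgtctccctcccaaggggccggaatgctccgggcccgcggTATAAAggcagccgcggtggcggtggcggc
WNT5B, first start, chr12:1616806-1617055, plus strand: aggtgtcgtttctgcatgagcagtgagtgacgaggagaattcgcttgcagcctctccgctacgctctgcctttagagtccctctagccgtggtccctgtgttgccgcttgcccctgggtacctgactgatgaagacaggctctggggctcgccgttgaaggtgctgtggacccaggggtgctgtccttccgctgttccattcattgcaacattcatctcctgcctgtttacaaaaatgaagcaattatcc
WNT5B, second start, chr12:1628981-1629230, plus strand: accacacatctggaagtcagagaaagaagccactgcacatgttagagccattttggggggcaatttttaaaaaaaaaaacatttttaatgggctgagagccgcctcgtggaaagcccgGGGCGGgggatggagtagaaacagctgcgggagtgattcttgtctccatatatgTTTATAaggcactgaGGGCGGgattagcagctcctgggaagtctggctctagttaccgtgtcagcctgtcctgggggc
WNT9A, chr1:227947933-227948182, minus strand: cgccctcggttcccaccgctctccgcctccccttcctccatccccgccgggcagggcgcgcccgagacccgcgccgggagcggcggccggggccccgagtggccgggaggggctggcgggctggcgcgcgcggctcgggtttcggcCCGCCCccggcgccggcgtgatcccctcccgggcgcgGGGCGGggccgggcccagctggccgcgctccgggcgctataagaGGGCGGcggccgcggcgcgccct

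In DKK1 the cores stand before a TATAAA and after a GGGCGG. The first WNT5B promoter held none of the 4 motifs, whereas the second held 2 GC boxes and a TATA box. WNT9A held 3 GC boxes in a window with 84.4% G and C, against 62.8% in DKK1. These matches describe letters in a window and say nothing of binding.

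In HCC4006, the ligand WNT5B and the receptor FZD7 rose in the resistant cells, the receptor FZD9 and the co-receptor LRP6 were called higher against DMSO libraries listed at 0, and no member was called lower. These 4 were 12.9% of 31 member rows tested, against 9.36% of the 19881 rows of the fit. Calls of a higher level alone made up 6.37% of all rows and calls of a lower level 2.98%. Before adjustment, 10 members were higher and 3 lower at a p below 0.05, together 41.9% of the members and 23% of all rows. Both resistant libraries lay above both DMSO libraries for 14 members (45.2%), against 26.6% of all rows, and below them for 6 (19.4%), against 26.5%. The median change of the members was 0.57 on the log2 scale, against −0.01 over all rows tested. Over the 25 members above 0 in every HCC4006 library it was again 0.57, against −0.04 over 16484 such rows, and limma called none of these members when the fit held only such rows, where 10 (40.0%) had an unadjusted p below 0.05, against 16.4% of all rows of that fit.

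In HCC827, LRP6 was called higher and the ligands WNT7B and WNT9A lower, each with a group listed at 0 in both libraries. Such a group has no scatter, so the scatter within each of these rows came from the other group alone. The 3 calls were 12.5% of 24 member rows tested, against 6.8% of 19324 rows, with 5.13% of all rows called higher and 1.67% called lower. Before adjustment, 8 members (33.3%) had a p below 0.05, against 18.2% of all rows. Groups did not overlap for 6 members in each direction, which is 25% each way, against 24.3% of all rows above and 24.7% below. The median change was −0.04, as over all rows. Leaving out either HCC827 DMSO library ended every call in this line, among the members and among all rows, while 2768 rows without library A and 2574 without library B, 7 and 8 members among them, still had an unadjusted p below 0.05. The change differed between the lines for 5 of 29 member rows (17.2%), against 12.1% of 20685 rows, of which 6.27% were called higher and 5.82% lower. The change was higher in HCC827 for 1 member and lower for 4. These were WNT5B, WNT7A, WNT7B, WNT9A and FZD9. In each of the 5, at least 1 group was listed at 0 in both libraries, and limma called no member in a fit of rows above 0 in every library, where 4 of 18 (22.2%) had an unadjusted p below 0.05, against 19.0% of all rows of that fit. In each of the 3 comparisons the members' share amounts to between 1 and 2 rows more than the background share would give.

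Of 19 WNT ligand genes, 12 lay above 0 somewhere and 7 were listed at 0 in all 8 libraries (WNT1, WNT2, WNT3A, WNT6, WNT8A, WNT9B and WNT11). Resistant HCC4006 had 8 ligands above 0, against 9 in HCC4006 DMSO, and resistant HCC827 had 5, against 8 in HCC827 DMSO. Ligand levels summed to 394 and 384 FPKM in libraries A and B of resistant HCC4006, against 232 and 386 FPKM in HCC4006 DMSO. In HCC827 the sums were 44.5 and 27.1 FPKM in the resistant libraries, against 261 and 236 FPKM in the DMSO libraries. The sums therefore overlapped in HCC4006 and did not overlap in HCC827. The resistant HCC827 sums hold WNT7B and WNT9A at 0, and the nature of these zeros was not tested.

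WNT7B (chr22:46316241-46373009 on hg19), an epithelial ligand of mouse lung development that can act through beta-catenin, made up most of these sums. It was listed at 0 in both resistant HCC827 libraries, against 171 and 188 FPKM in HCC827 DMSO, and was called lower (adjusted p = 0.000544). Whether these zeros are low levels or values not estimated for the locus was not tested. No other row above 0 in any library shared the locus. In HCC4006 WNT7B was at 308 and 293 FPKM in resistant cells, against 127 and 215 FPKM in DMSO cells. The HCC4006 groups did not overlap, and the difference of 0.86 ± 0.33 (SE) did not pass the test (adjusted p = 0.248). The lines differed in this change (adjusted p = 4.39e-05). WNT7B held 78.0% and 76.4% of all ligand FPKM in resistant HCC4006, against 54.5% and 55.8% in HCC4006 DMSO, and none in resistant HCC827, against 65.2% and 79.5% in HCC827 DMSO. The HCC827 call was lost without DMSO library A (adjusted p = 0.0739) or B (adjusted p = 0.0609) and held under the other alternatives tried, whose lowest adjusted p was 8.23e-06.

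WNT9A (chr1:228106356-228135631), a ligand known from joint development in the mouse and blood stem cell development in zebrafish, showed the same pattern in HCC827. It was listed at 0 in both resistant HCC827 libraries, against 39.3 and 17.5 FPKM in HCC827 DMSO, and was called lower (adjusted p = 0.00773). The nature of these zeros was not tested either. In HCC4006 WNT9A was at 25.3 and 21.8 FPKM in resistant cells, against 23.9 and 57.7 FPKM in DMSO cells, and these groups overlapped (−0.65 ± 0.50, adjusted p = 0.514). The change differed between the lines (adjusted p = 0.00876). Over the alternatives the adjusted p of the HCC827 change ran between 0.000954 and 0.187, and leaving out any 1 of the 4 HCC827 libraries ended the call.

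WNT5B (chr12:1726221-1756409), a ligand mostly studied outside the canonical branch, rose in resistant HCC4006. It was at 33.8 and 38.0 FPKM in resistant HCC4006, against 5.86 and 5.39 FPKM in HCC4006 DMSO, a change of 2.57 ± 0.24 (adjusted p = 0.0102). The libraries of each group lay close together and the groups far apart. In HCC827 it was listed at 0 in all 4 libraries, so its difference between the lines (adjusted p = 0.0148) restates the HCC4006 change. Its adjusted p in HCC4006 ran between 0.00298 and 0.129 over the alternatives, and it was not called without resistant library A (0.116), without resistant library B (0.129) or over rows above 0 in every library (0.0729).

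WNT5A (chr3:55499742-55523973), the best studied noncanonical ligand, was lower in both resistant HCC4006 libraries than in HCC4006 DMSO. It was at 1.55 and 7.61 FPKM in resistant HCC4006, against 30.0 and 56.8 FPKM in HCC4006 DMSO. The groups did not overlap, but the resistant libraries differed from each other more than for any other named gene in that group, and the difference of −3.36 ± 0.83 did not pass the test (adjusted p = 0.116). Its HCC827 levels were 24.2 and 5.51 FPKM in resistant cells, against 5.18 and 4.35 FPKM in DMSO cells (1.21 ± 0.78, adjusted p = 0.494). Library A of resistant HCC827 alone stood high, and WNT5A was the highest ligand of that library. The signs of the 2 changes were opposite, with a difference between the lines of 4.57 ± 1.27 that missed the threshold (adjusted p = 0.0761).

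WNT3 (chr17:44839875-44895981), a canonical ligand, was measured in every library. It was at 19.2 and 19.04 FPKM in resistant HCC4006, against 21.4 and 35.2 FPKM in HCC4006 DMSO (−0.51 ± 0.33, adjusted p = 0.458). Resistant HCC827 cells had 16.5 and 17.5 FPKM, against 29.1 and 24.4 FPKM in HCC827 DMSO cells (−0.63 ± 0.33, adjusted p = 0.405). Both lines had lower values in both resistant libraries and neither difference passed the test. With WNT7B listed at 0, WNT3 supplied 37.0% and 64.7% of ligand FPKM in resistant HCC827, against 11.1% and 10.3% in HCC827 DMSO.

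WNT7A (chr3:13857754-13921618), a close relative of WNT7B, was listed at 0 in both resistant HCC4006 libraries, against 2.68 and 6.51 FPKM in HCC4006 DMSO, and did not pass the test there (adjusted p = 0.0621). It did under 5 of 12 alternatives, with adjusted p between 0.00651 and 0.433. It was listed at 0 in all HCC827 libraries, and the difference between the lines was called (adjusted p = 0.0287) although the HCC4006 change, which it restates, was not. The HCC827 zeros enter that fit without any scatter, so this call shows nothing beyond the HCC4006 change. The remaining ligands were low. WNT10A was at 1.84 and 1.13 FPKM in resistant HCC4006, against 9.32 and 3.05 FPKM in HCC4006 DMSO. WNT10B lay between 1.93 and 5.94 FPKM in the HCC4006 libraries and between 2.07 and 4.47 FPKM in the HCC827 libraries. WNT4 was above 0 only in library A of each DMSO group, at 6.23 FPKM in HCC4006 and 8.33 FPKM in HCC827, and WNT2B, WNT8B and WNT16 did not exceed 2.94 FPKM in any library.

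**Figure D1:**
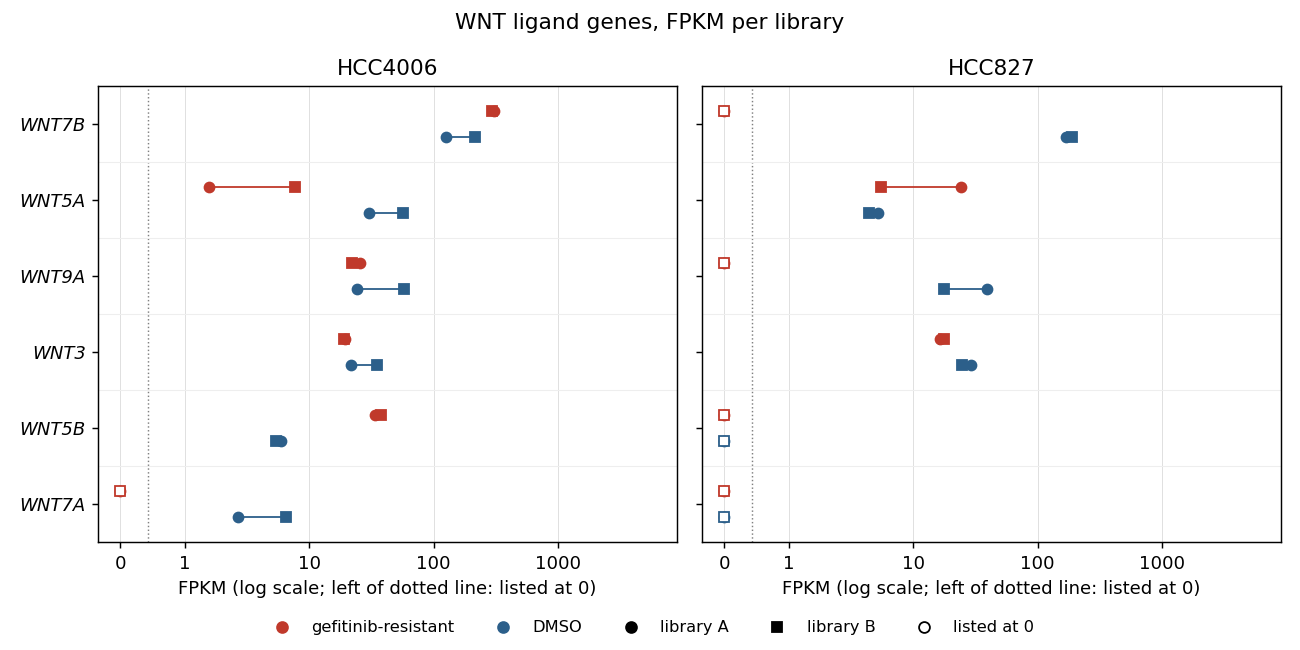
FPKM (log scale) of the 6 WNT ligand genes that were called or had a mean of at least 10 FPKM in a group. HCC4006 is on the left and HCC827 on the right, with resistant libraries in red above DMSO libraries in blue. Circles are library A, squares library B, lines join the libraries of a group, and open symbols left of the dotted line are values listed at 0. WNT5B stands apart between the HCC4006 groups, at 33.8 and 38.0 against 5.86 and 5.39 FPKM, and WNT7B and WNT9A are listed at 0 in resistant HCC827.

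Of 10 Frizzled genes, 9 lay above 0 somewhere and FZD10 was listed at 0 in all libraries. Summed over the genes' own rows, Frizzled levels were 629 and 549.5 FPKM in resistant HCC4006, against 407 and 465 FPKM in HCC4006 DMSO. In HCC827 they were 370.2 and 245 FPKM in resistant cells, against 263 and 259 FPKM in DMSO cells. FZD2 had the highest level per length in all 4 HCC4006 libraries, while FZD2 or FZD6 did in HCC827.

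FZD7 (chr2:202899309-202903160), a receptor of the canonical branch that is often high in carcinomas and stem cells, rose in resistant HCC4006. It was at 137 and 133 FPKM in resistant HCC4006, against 40.4 and 39.9 FPKM in HCC4006 DMSO, a change of 1.74 ± 0.19 (adjusted p = 0.0164). In HCC827 its level was far lower, at 7.73 and 8.14 FPKM in resistant cells, against 1.24 and 1.55 FPKM in DMSO cells. That difference of 2.16 ± 0.47 pointed the same way and missed the threshold (adjusted p = 0.0873). The difference between the lines was 0.42 ± 0.36 (adjusted p = 0.511). In HCC827 the adjusted p ran between 0.00258 and 0.231 over the alternatives, and passed the threshold without a mean-variance trend (0.031) and in a fit over all 8 libraries (0.00258). In HCC4006 it ran between 0.00657 and 0.203, and missed it without resistant library A (0.203), without resistant library B (0.198) and over rows above 0 in every library (0.0772). FZD7 made up 21.8% and 24.2% of Frizzled FPKM in resistant HCC4006, against 9.91% and 8.59% in HCC4006 DMSO.

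FZD9 (chr7:72848108-72850450), a receptor first described in brain and deleted in Williams syndrome, was called higher in resistant HCC4006 at a low level. It was at 7.16 and 6.62 FPKM in resistant HCC4006 and listed at 0 in both HCC4006 DMSO libraries (adjusted p = 0.0133). It was listed at 0 in all HCC827 libraries, so the called difference between the lines (adjusted p = 0.00338) restates the HCC4006 change.

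FZD3, a receptor of planar polarity and axon guidance, was lower in resistant cells of both lines without passing the test in either. It was at 1.37 and 1.07 FPKM in resistant HCC4006, against 5.78 and 7.02 FPKM in HCC4006 DMSO (−2.00 ± 0.35, adjusted p = 0.0565). The HCC827 libraries held it at 16.7 and 9.72 FPKM in resistant cells, against 49.6 and 41.5 FPKM in DMSO cells (−1.79 ± 0.41, adjusted p = 0.0993). Groups overlapped in neither line. The call was reached under 5 of 13 alternatives in HCC4006 (adjusted p between 0.0183 and 0.224) and under 2 of 13 in HCC827 (between 0.0343 and 0.448).

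FZD8 (chr10:35927176-35930362), another WNT receptor, was at 22.1 and 21.2 FPKM in resistant HCC4006, against 2.75 and 7.20 FPKM in HCC4006 DMSO (2.15 ± 0.51, adjusted p = 0.11). In HCC827 it was at 3.95 and 1.68 FPKM in resistant cells, against 2.31 and 2.27 FPKM in DMSO cells (0.16 ± 0.60, adjusted p = 0.919). The HCC4006 groups stood apart and the HCC827 groups overlapped, and the difference between the lines did not pass the test (adjusted p = 0.176). FZD2 (chr17:42634924-42636907) was at 253 and 191 FPKM in resistant HCC4006, against 193 and 191 FPKM in HCC4006 DMSO (0.19 ± 0.23, adjusted p = 0.658), and at 77.7 and 96.5 FPKM in resistant HCC827, against 27.9 and 51.1 FPKM in HCC827 DMSO (1.19 ± 0.41, adjusted p = 0.242). FZD1 (chr7:90893678-90898123) was at 25.4 and 22.6 FPKM in resistant HCC4006, against 10.8 and 23.5 FPKM in HCC4006 DMSO (0.57 ± 0.45, adjusted p = 0.518), and at 60.1 and 16.9 FPKM in resistant HCC827, against 19.5 and 7.79 FPKM in HCC827 DMSO (1.33 ± 0.80, adjusted p = 0.465). FZD1, FZD2 and FZD7 are close relatives in sequence, and of the 3 FZD7 alone passed the test, in HCC4006, with a difference from the other 2 that was not tested.

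FZD5 and FZD6 had differences close to 0. FZD5 (chr2:208627309-208634287), a receptor that WNT7B can use, was at 24.1 and 21.6 FPKM in resistant HCC4006, against 15.5 and 33.9 FPKM in HCC4006 DMSO (−0.01 ± 0.46, adjusted p = 0.993). Its HCC827 levels were 63.2 and 49.7 FPKM in resistant cells, against 64.4 and 50.2 FPKM in DMSO cells (−0.02 ± 0.32, adjusted p = 0.984). FZD6, a receptor of planar polarity, was at 146 and 139 FPKM in resistant HCC4006, against 135 and 155 FPKM in HCC4006 DMSO (−0.02 ± 0.20, adjusted p = 0.96). Resistant HCC827 cells had 131 and 57.9 FPKM, against 87.0 and 95.6 FPKM in HCC827 DMSO cells (−0.07 ± 0.47, adjusted p = 0.961). The groups overlapped for both genes in both lines.

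FZD4, a receptor for WNT and for the ligand norrin, had its own row and a second row joined with AP000654.2 on the same locus (chr11:86502100-86666433). Its own row was at 12.6 and 13.2 FPKM in resistant HCC4006, against 3.77 and 7.29 FPKM in HCC4006 DMSO (1.22 ± 0.40, adjusted p = 0.2). The HCC827 libraries held it at 10.0 and 4.02 FPKM in resistant cells, against 11.3 and 8.86 FPKM in DMSO cells (−0.61 ± 0.56, adjusted p = 0.604). The joined row held 4700.3 and 4054 FPKM in resistant HCC4006, against 1028 and 4916 FPKM in HCC4006 DMSO, and 756 and 842 FPKM in resistant HCC827, against 1774 and 2625 FPKM in HCC827 DMSO. Neither change of the joined row passed the test (0.96 ± 0.84, adjusted p = 0.547, and −1.43 ± 0.33, adjusted p = 0.104). Which gene these fragments came from cannot be told from the row, so it was left out of the Frizzled sums.

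LRP6 (locus chr12:12202797-12419811), a co-receptor of the canonical branch, was called higher in resistant cells of both lines. It was at 55.3 and 59.1 FPKM in resistant HCC4006 and listed at 0 in both HCC4006 DMSO libraries (adjusted p = 0.000998). In HCC827 it was at 81.7 and 46.4 FPKM in resistant cells and listed at 0 in both DMSO libraries (adjusted p = 0.00192). Every other row of this locus was listed at 0 in all 4 DMSO libraries too. The row AC007537.1 was at 163.5 and 172 FPKM in resistant HCC4006 and at 214 and 360 FPKM in resistant HCC827, and BCL2L14, a BCL2 family gene, was at 47.9 and 38.1 FPKM in resistant HCC827. Whether the zeros of the LRP6 row are low levels or values not estimated for the locus was not tested. Without HCC827 DMSO library A or B the HCC827 call was lost (adjusted p = 0.0912 and 0.0898, highest and next highest of the alternatives, whose lowest was 4.5e-05).

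LRP5 (chr11:68080076-68216743), the paralogous co-receptor, was high in every library. It was at 325 and 332 FPKM in resistant HCC4006, against 495 and 233 FPKM in HCC4006 DMSO (−0.05 ± 0.43, adjusted p = 0.959). In HCC827 it was at 586 and 488 FPKM in resistant cells, against 365 and 120.1 FPKM in DMSO cells (1.35 ± 0.60, adjusted p = 0.338). The HCC827 groups did not overlap, the HCC4006 groups did, and neither difference passed the test.

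Among the R-spondin receptors, LGR5 was listed at 0 in all libraries and LGR6 was at 2.18 FPKM in library A of HCC4006 DMSO alone. LGR4 (chr11:27387507-27503980) was at 158 and 129.9 FPKM in resistant HCC4006, against 73.6 and 291 FPKM in HCC4006 DMSO (−0.03 ± 0.75, adjusted p = 0.981). Its HCC827 levels were 289 and 174 FPKM in resistant cells, against 222 and 207 FPKM in DMSO cells (0.06 ± 0.36, adjusted p = 0.949). The groups overlapped in both lines. ZNRF3 (chr22:29279889-29453475), which clears Frizzled receptors from the membrane, was at 28.2 and 28.5 FPKM in resistant HCC4006, against 13.9 and 16.6 FPKM in HCC4006 DMSO (0.88 ± 0.23, adjusted p = 0.133). Resistant HCC827 cells had 22.4 and 21.6 FPKM, against 22.8 and 24.0 FPKM in HCC827 DMSO cells (−0.09 ± 0.32, adjusted p = 0.911). Its partner RNF43 was listed at 0 in all 8 libraries, as was every other row of that locus, SUPT4H1 among them.

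**Figure D2:**
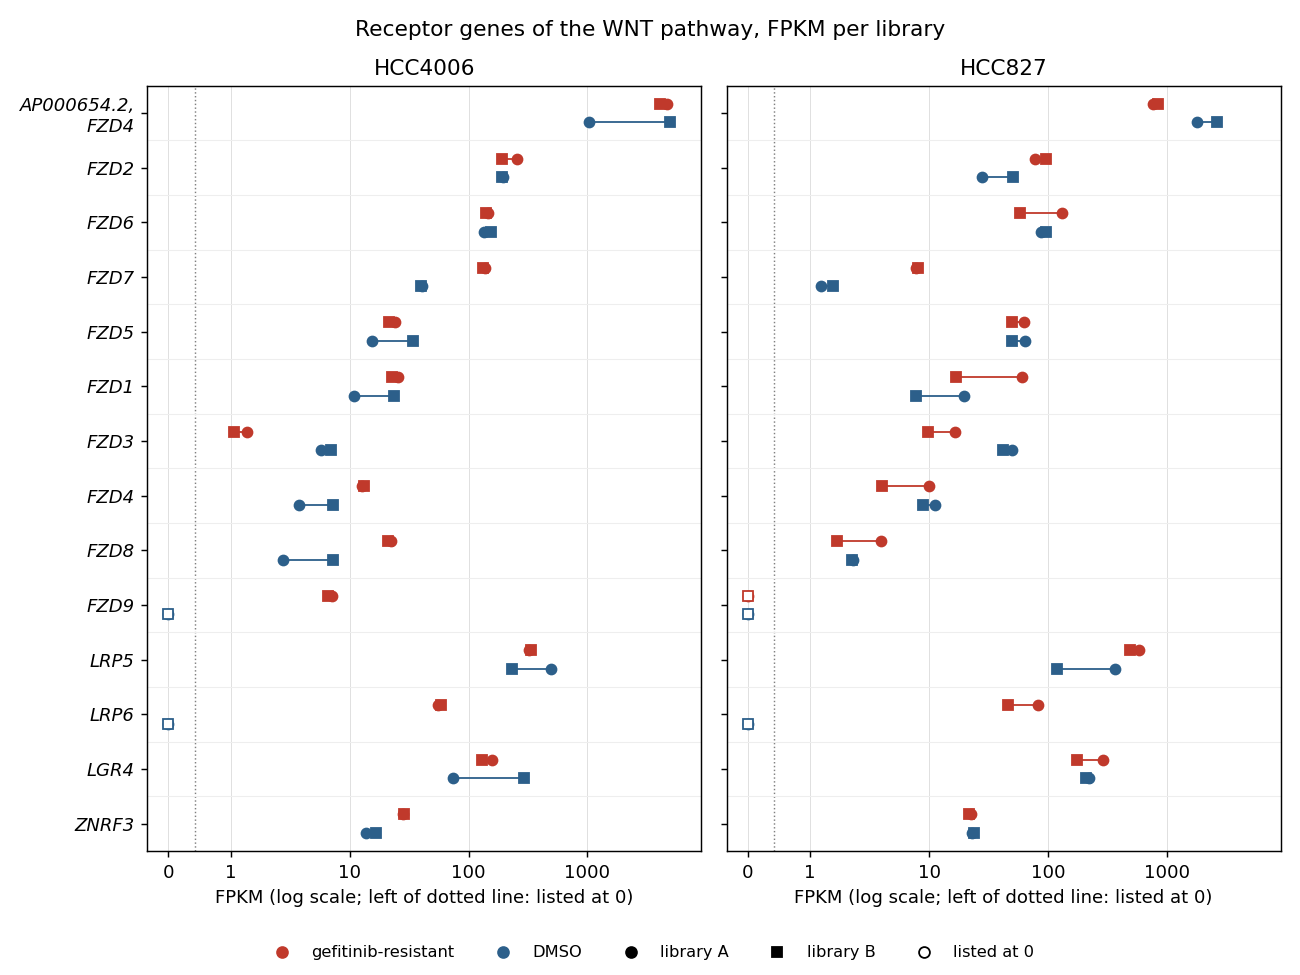
FPKM (log scale) of the Frizzled, LRP, LGR4 and ZNRF3 rows named with values, in HCC4006 (left) and HCC827 (right), with resistant libraries in red above DMSO libraries in blue and symbols as for the ligands. FZD7 stands apart in HCC4006, at 137 and 133 against 40.4 and 39.9 FPKM, LRP6 is listed at 0 in all DMSO libraries, and FZD5 and FZD6 overlap in both lines.

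Of the secreted antagonists, DKK1 and DKK3 lay above 0, while DKK2, DKK4, SFRP1, SFRP2, SFRP4, SFRP5 and WIF1 were listed at 0 in all libraries. SFRP3 is not among the names, since it is called FRZB in the tables, where it was at 1.23 FPKM in library A of HCC4006 DMSO and at 0 elsewhere. DKK1 (chr10:54074055-54077417 on hg19) was at 551 and 493 FPKM in resistant HCC4006, against 43.7 and 330.3 FPKM in HCC4006 DMSO. The groups did not overlap, but the DMSO libraries lay 2.91 apart on the log2 scale, the widest gap of any named gene in that group, and the difference of 2.11 ± 1.07 did not pass the test (adjusted p = 0.358). Without DMSO library B the difference was 3.56, and without DMSO library A it was 0.66. The HCC827 libraries held it at 18.97 and 98.6 FPKM in resistant cells, against 22.2 and 119.8 FPKM in DMSO cells (−0.25 ± 1.15, adjusted p = 0.934). Here too DKK1 had the widest gap between the libraries of a group, 2.35 in resistant cells and 2.40 in DMSO cells.

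DKK3 (chr11:11984546-12031316), a DKK relative that does not act on LRP co-receptors as DKK1 does, was higher in both resistant libraries of both lines. It was at 719.7 and 797 FPKM in resistant HCC4006, against 386 and 177 FPKM in HCC4006 DMSO (1.53 ± 0.45, adjusted p = 0.16). In HCC827 it was at 102 and 134 FPKM in resistant cells, against 14.2 and 33.7 FPKM in DMSO cells (2.39 ± 0.51, adjusted p = 0.0834). Neither difference passed the test. The HCC827 one did in a fit over all 8 libraries (adjusted p = 0.0435), within a range of 0.0221 to 0.364 over the alternatives. Another row of its locus, AC124276.1, was at 207 and 167 FPKM in resistant HCC4006, against 148 and 80.7 FPKM in HCC4006 DMSO, and its fragments cannot be told from those of DKK3 where the rows overlap.

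LEF1, TCF7, TCF7L1 and TCF7L2 carry beta-catenin to its target genes. LEF1 (chr4:108968700-109177992) was at 33.1 and 35.4 FPKM in resistant HCC4006, against 8.02 and 14.9 FPKM in HCC4006 DMSO (1.60 ± 0.38, adjusted p = 0.109), and was listed at 0 in all HCC827 libraries. TCF7 (chr5:133450401-133487556) was at 62.7 and 67.2 FPKM in resistant HCC4006, against 22.9 and 43.5 FPKM in HCC4006 DMSO (1.03 ± 0.39, adjusted p = 0.24). HCC827 listed it at 0 except for 1.396 FPKM in DMSO library A. In HCC4006 both genes stood higher in both resistant libraries, and neither passed the test. TCF7L1 was at 5.98 and 7.94 FPKM in resistant HCC4006, against 5.96 and 2.81 FPKM in HCC4006 DMSO, and was listed at 0 in HCC827. TCF7L2 (chr10:114710008-114927437) had the highest level of the 4 in every library, at 102 and 131 FPKM in resistant HCC4006, against 124 and 161 FPKM in HCC4006 DMSO (−0.29 ± 0.26, adjusted p = 0.554). Its HCC827 levels were 146 and 148 FPKM in resistant cells, against 161 and 101 FPKM in DMSO cells (0.21 ± 0.35, adjusted p = 0.787). Resistant HCC827 thus listed TCF7L2 alone of the 4 factors above 0, and HCC827 DMSO listed TCF7L2 and, in library A, TCF7.

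AXIN2 was at 0.982 and 1.65 FPKM in resistant HCC4006 and listed at 0 in both HCC4006 DMSO libraries (adjusted p = 0.16), and was listed at 0 in all HCC827 libraries.

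**Figure D3:**
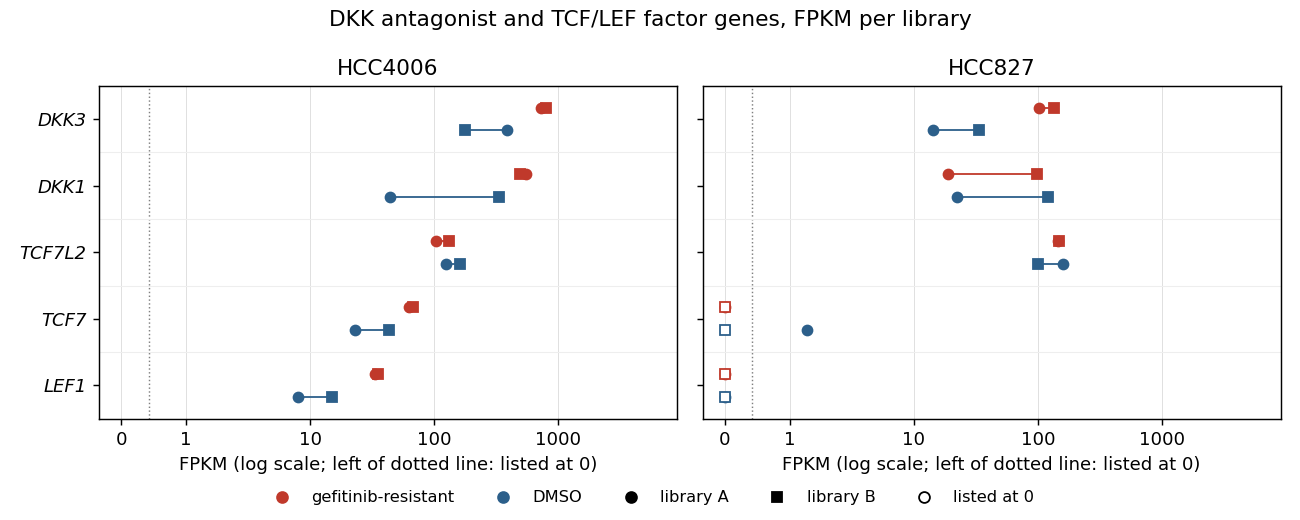
FPKM (log scale) of the DKK antagonist and TCF/LEF factor genes with a mean of at least 10 FPKM in a group, which leaves out TCF7L1. HCC4006 is on the left and HCC827 on the right, with resistant libraries in red above DMSO libraries in blue and symbols as for the ligands. DKK1 spreads widely within 3 of the groups, between 43.7 and 330.3 FPKM in HCC4006 DMSO for example, DKK3 is higher in the resistant libraries of both lines, and LEF1 is listed at 0 in HCC827.

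The spread between libraries limits these comparisons unevenly. Among the named rows above 0 in both libraries, the median gap between libraries A and B was 0.13 on the log2 scale in resistant HCC4006, against 0.91 in HCC4006 DMSO, where all rows had medians of 0.22 and 0.56. In HCC4006 DMSO, 18 of 23 such named rows were higher in library B. In HCC827 the median gap was 0.56 in resistant cells, against 0.33 in DMSO cells. Without HCC4006 DMSO library B, WNT7B had a change of 1.24, against 0.86 with all libraries. FZD8 then had a change of 2.77, against 2.15, and LEF1 of 2.03, against 1.60. A group left with a single library has no scatter of its own, so the calls of such a fit rest on the other group. For DKK3 the removal of HCC4006 DMSO library A gave a change of 2.09 and the removal of library B 0.97, against 1.53 with all libraries.

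**Figure D4:**
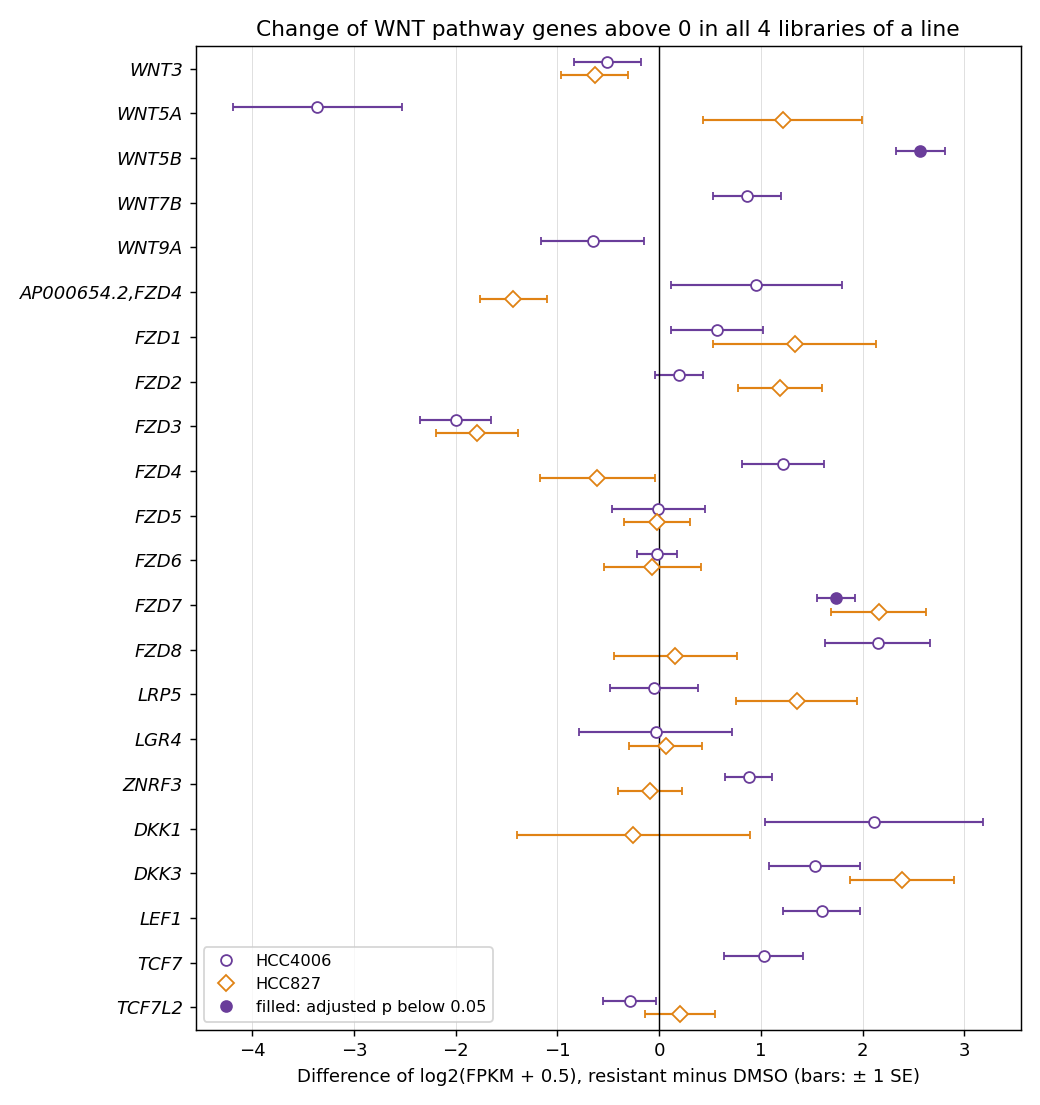
Difference of log2(FPKM + 0.5), resistant minus DMSO, with bars of 1 standard error either way, for the named rows above 0 in all 4 libraries of a line; circles are HCC4006, diamonds HCC827, and filled symbols have an adjusted p below 0.05. WNT5B at 2.57 and FZD7 at 1.74 in HCC4006 are the filled ones, and WNT5A shows the widest separation of the lines, at −3.36 in HCC4006 and 1.21 in HCC827.

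Other genes of the pathway were followed from lists of extracellular modulators, R-spondins and secretion factors, co-receptors and polarity genes, cytoplasmic transducers, nuclear partners of beta-catenin and reported target genes. Of 82 genes, 80 were found. In HCC4006, 5 of 64 tested were called higher and 3 lower, together 12.5% against 9.36% of all rows. Before adjustment 21 (32.8%) had a p below 0.05 in this line, 13 higher and 8 lower, against 23% of all rows. When the HCC4006 fit held only rows above 0 in every library, limma called 0 of 56, against 0.53% of all rows. There 15 (26.79%) had an unadjusted p below 0.05, against 16.4% of all rows. LRP4 (adjusted p = 0.0716) and CTNNBIP1 (adjusted p = 0.083), both described below, missed the threshold in that fit. In HCC827, limma called 1 of 58 higher and 0 lower (1.72%, against 6.8% of all rows), with 7 at an unadjusted p below 0.05 (12.1%, against 18.2%). The change differed between the lines for 6 of 63 (9.52%, against 12.1% of all rows), 3 in each direction.

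Receptors of the noncanonical branch were among them. ROR1, a receptor for WNT5A, was at 19.3 and 13.2 FPKM in resistant HCC4006 and listed at 0 in both HCC4006 DMSO libraries (adjusted p = 0.0063). In HCC827 it was at 23.7 and 14.1 FPKM in resistant cells and listed at 0 in both DMSO libraries (adjusted p = 0.00775). As for LRP6, every other row of its locus (chr1:64239692-64647181) was at 0 in the DMSO libraries, and the HCC827 call was lost without DMSO library A (adjusted p = 0.112) or B (adjusted p = 0.116, the highest of alternatives that began at 0.000295). LRP4, a relative of LRP6 that acts in synapse and bone biology and can restrain WNT signals, was at 13.7 and 16.6 FPKM in resistant HCC4006, against 1.62 and 1.52 FPKM in HCC4006 DMSO (2.92 ± 0.30, adjusted p = 0.0136). Resistant HCC827 cells had 0.989 and 0 FPKM, against 16.8 and 6.65 FPKM in HCC827 DMSO cells (adjusted p = 0.0979). Its higher values lay in opposite groups, although the HCC827 difference did not pass the test, and the lines differed (adjusted p = 0.00583). VANGL2, a core planar polarity protein, fell to 1.08 and 0 FPKM in resistant HCC4006, against 38.0 and 16.2 FPKM in HCC4006 DMSO (adjusted p = 0.0492, between 0.00828 and 0.383 over the alternatives). The LRP4 call in HCC4006 was lost without DMSO library A (adjusted p = 0.0501), resistant library A (0.0607) or resistant library B (0.0696), within a range of 0.00754 to 0.0716, and the VANGL2 call without any 1 of the 4 HCC4006 libraries. The LRP4 difference between the lines reached 0.0501 without resistant HCC4006 library B, the highest of alternatives that began at 0.000908.

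Inside the cell, the APC row, which joins this scaffold of the destruction complex with SRP19 and ZRSR1, was at 236 and 215 FPKM in resistant HCC4006 and listed at 0 in the other 6 libraries. The CSNK1E row, for a kinase of the pathway and joined with RP3-449O17.1, was at 274 and 414 FPKM in resistant HCC4006 and likewise at 0 in the other 6. REEP5, on the APC locus, was also at 0 outside resistant HCC4006. Both rows were called higher in HCC4006 (adjusted p = 0.000506 for APC and 0.000627 for CSNK1E), on zeros whose nature was not tested. CTNNB1, which encodes beta-catenin, was at 1349 and 1265 FPKM in resistant HCC4006, against 581 and 942 FPKM in HCC4006 DMSO (0.82 ± 0.31, adjusted p = 0.241), and did not pass the test in HCC827 either (0.13, adjusted p = 0.868). CTNNBIP1, which keeps beta-catenin off TCF factors, fell to 86.4 and 109 FPKM in resistant HCC4006, against 296 and 298 FPKM in HCC4006 DMSO (−1.61 ± 0.22, adjusted p = 0.0296). The lines differed in it by 1.69 ± 0.34 (adjusted p = 0.0244). Leaving out any 1 of the HCC4006 libraries ended the HCC4006 call (adjusted p between 0.0744 and 0.224), and 6 of 8 such removals ended the call between the lines (up to 0.0878).

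Among 17 reported target genes, JUN rose and CD44 was called lower in HCC4006, 2 of 15 tested (13.3%, against 9.36% of all rows). Before adjustment 6 (40.0%) had a p below 0.05 in this line, 3 higher and 3 lower, against 23% of all rows. In HCC827 limma called none, where 3 (20%) had an unadjusted p below 0.05, against 18.2% of all rows. JUN, an AP-1 subunit, was at 276 and 238 FPKM in resistant HCC4006, against 77.6 and 72.5 FPKM in HCC4006 DMSO (1.77 ± 0.20, adjusted p = 0.0185). The call was reached under 6 of 13 alternatives and was lost without any 1 of the 4 HCC4006 libraries. It was also lost over rows above 0 in every library (adjusted p = 0.0729) and in a fit over all 8 libraries (adjusted p = 0.079). CD44, an adhesion receptor, was listed at 0 on its higher row in both resistant HCC4006 libraries, against 8578 and 13596 FPKM in HCC4006 DMSO. The other rows of its locus were listed at 0 in those resistant libraries as well, and whether these zeros are low levels or values not estimated was not tested. Targets often read as WNT output, MYC and CCND1 among them, did not pass the test in either line. TNFRSF19, a receptor of the TNF family, differed between the lines (adjusted p = 0.0127) without passing in either. It was low, at 2.06 and 1.76 FPKM in resistant HCC827 and listed at 0 in HCC827 DMSO. In HCC4006 it was at 4.21 and 3.37 FPKM in resistant cells, against 5.44 and 7.44 FPKM in DMSO cells. The median change of the target genes tested was 0.31 in HCC4006 and −0.13 in HCC827, against −0.01 and −0.04 over all rows.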

How the data were processed

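The deposited values are gene-level FPKM in 2 tables, 1 per line, which the authors made with TopHat 1.4.1, Cufflinks 1.3.0 and Cuffdiff on hg19, per the submitters' processing notes. Gene annotation and options: not given in the sources used here. Libraries were made from polyadenylated RNA with a kit that does not mark strand, per the labels' protocols, so overlapping genes cannot be told apart. FPKM keep no counts and the low values held no whole-read steps, so depth is unknown. Of the per-sample columns, 0 lay outside the 4 groups.

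For the tests limma 3.58.1 (R 4.3.3; lmFit, eBayes with trend) was run on log2(FPKM + 0.5) over rows with a mean of at least 0.5 FPKM, with 4 libraries per line and all 8 for the difference between the lines (HCC827 change minus HCC4006 change). Alternatives were other pseudocounts (0.1, 1), filters, quantile normalization, no trend, a shared fit, a block and leaving out each library. Leaving out a library leaves its group with no scatter of its own, so the adjusted p then rests on the other groups of the fit. The code was tested on simulated data with the same spread for every row and no changed row with a group listed at 0. That test therefore does not bear on calls against zeros or on rows with widely spread libraries. Members count as named if called or with a mean of at least 10 FPKM in a group. Some lower members, such as WNT10A and TCF7L1, are given with values in the text but are not drawn. The members and lists were chosen with earlier results of these data known. Coordinates are the tables' own loci, except RefSeq promoters on GRCh38.p14.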

Additional observations from a re-analysis of the deposited data

Results flagged for a closer look

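The change between resistant and DMSO cells differed between the lines for 5 members by the interaction test of limma over all 8 libraries. WNT7B had an adjusted p of 4.39e-05, with 2 of 2 resistant libraries above both DMSO libraries in HCC4006 and 2 of 2 listed at 0, against 171 and 188 FPKM, in HCC827. WNT9A had an adjusted p of 0.00876, with overlapping groups in HCC4006 and 2 of 2 resistant libraries listed at 0 in HCC827. FZD9 (adjusted p = 0.00338), WNT5B (adjusted p = 0.0148) and WNT7A (adjusted p = 0.0287) were listed at 0 in all 4 HCC827 libraries, so that their difference is the HCC4006 change with its sign turned. Those HCC827 zeros enter the fit without any scatter, so these calls show nothing beyond the HCC4006 change. WNT7A was not called in HCC4006 alone (adjusted p = 0.0621), where 5 of 12 alternatives called it, and over the alternatives of the difference between the lines its adjusted p ran between 0.00303 and 0.0889. The corresponding ranges were 2.5e-05 to 0.00187 for WNT7B, 0.00214 to 0.0687 for WNT9A, 0.000415 to 0.0366 for FZD9 and 0.00323 to 0.0832 for WNT5B. Groups of 2 libraries are too small for a test of single libraries that stand apart.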

How the results depend on the processing

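Requiring values above 0 in every library cut the number of rows called to 88 in HCC4006 against 1860, to 19 in HCC827 against 1314 and to 212 against 2501 for the difference between the lines, and cut the members called to 0 in all 3. Such a fit leaves out every row with a 0, which removes the calls of members listed at 0 in a group. FZD7 and WNT5B stayed in the HCC4006 fit with the same changes, 1.74 and 2.57, and adjusted p of 0.0772 and 0.0729. Members called in HCC4006 numbered 7 without a trend, against 4, which was 22.58% of members and 10.01% of all rows. Members called in HCC827 numbered 6 in a fit over all 8 libraries, against 3, which was 20.69% of members and 8.54% of all rows. Members differing between the lines numbered 3 with a mean of at least 2 FPKM, against 5. That was 12.0% of members and 12.21% of all rows. Leaving out 1 library gave 1394 to 3565 rows and 2 to 12 members in HCC4006, 0 to 1520 rows and 0 to 2 members in HCC827, and 1666 to 3857 rows and 3 to 7 members between the lines. The highest counts came without HCC4006 DMSO library B, and the zeros without HCC827 DMSO library A or B. The cause was not tested.

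With the column letter as a replicate block, the counts were 1400 rows and 3 members in HCC4006, 1485 and 4 in HCC827, and 1687 and 3 between the lines. The letters were not shown to pair libraries: differences between A and B correlated at −0.077 between resistant and DMSO HCC4006 (16781 rows) and at 0.205 in HCC827 (16153 rows). With the block, the calls of FZD7, FZD9, LRP4, JUN and CTNNBIP1 in HCC4006 and of WNT5B, WNT7A, CTNNBIP1 and TNFRSF19 between the lines were not reached. Those of WNT5A in HCC4006 (0.0349), DKK3 (0.0221) and LRP4 (0.026) in HCC827, and VANGL2 between the lines (0.0398) were reached with it.

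None of the 27 called results on named genes, of 95, changed sign under any alternative tried. Of the results not called, the following did. Quantile normalization, which moves the median of all rows to −0.19 in HCC4006 and −0.24 in HCC827, gave FZD8 in HCC827 −0.70 and the differences between the lines of FZD5 0.17 and FZD7 −0.11. A pseudocount of 1 gave −0.0191 for FZD3 between the lines. Leaving out 1 library moved the HCC4006 log2 changes between −0.17 and 2.09 for the joined FZD4 row, −0.0076 and 0.40 for FZD2, −0.56 and 0.55 for FZD5, −0.12 and 0.0763 for FZD6, −1.02 and 0.95 for LGR4, and −0.59 and 0.49 for LRP5. In HCC827 it moved them between −1.45 and 0.95 for DKK1, −1.22 and 0.0021 for FZD4, −0.20 and 0.16 for FZD5, −0.65 and 0.52 for FZD6, −0.36 and 0.67 for FZD8, −0.30 and 0.43 for LGR4, −0.13 and 0.54 for TCF7L2, −0.14 and 0.30 for CTNNBIP1, and −1.17 and 0.0251 for VANGL2. The differences between the lines ran between −0.14 and 1.66 for FZD1, −0.16 and 0.58 for FZD3, −0.57 and 0.54 for FZD5, −0.63 and 0.54 for FZD6, −0.89 and 1.09 for LGR4, −0.30 and 0.51 for LRP6, −0.18 and 0.56 for ROR1, and −0.47 and 0.23 for WNT3. Depth is unknown, so what it limits cannot be given.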
